A study of Rattus norvegicus with 6 samples.

Results

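The genes described here are those of the proteasome, the protease complex that degrades ubiquitin-tagged proteins. Members were all genes whose RefSeq symbol starts with Psma, Psmb, Psmc, Psmd, Psme, Psmf or Psmg and that were detected, meaning a probe well above background throughout the 3 arrays of either group. The array carried 46 such symbols, all 46 met the condition, and they are 46 of 31179 genes tested. Of these, 30 encode constitutive subunits of the core or its cap, and 5 belong to the immunoproteasome (Psmb8, Psmb9, Psmb10, Psme1 and Psme2). A further 5 encode assembly chaperones and 3 encode other activators or the inhibitor. Another 3 were set apart: Psmc3ip and Psme3ip1, which carry the prefix but are not subunits, and Psma8, an alpha subunit best known from the testis.

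Renal cortex of male Sprague-Dawley (Crl:CD(SD)) rats, 5 weeks old at purchase, was measured on 1-colour Agilent expression arrays with 1 array per animal. The vehicle group was 3 rats given corn oil for 4 weeks, and the treated group was 3 rats given benzyl acetate at 1000 mg/kg/day for the same 4 weeks. Benzyl acetate is an ester used in fragrances and flavours. All 6 rats ate a basal diet, and the labels name no genetic change in any of them.

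The 20S core is a barrel of stacked rings, in which the outer alpha rings gate the entrance and the inner beta rings hold the catalytic subunits Psmb5, Psmb6 and Psmb7. A 19S cap, made of ATPases that unfold the substrate and non-ATPase subunits that bind and trim ubiquitin, sits on its ends. Transcription of the constitutive subunit genes is co-ordinated through the factor NRF1 (Nfe2l1) at antioxidant response elements, while interferon-gamma, through IRF1, induces Psmb8, Psmb9 and Psmb10, which take the places of Psmb5, Psmb6 and Psmb7 in new particles and favour peptides for MHC class I. The PA28 activator, encoded by Psme1 and Psme2, is induced by the same route.

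The promoters of the catalytic pairs show how the letters bound by these factors are spread over the family. RefSeq promoter windows of the GRCr8 assembly, 250 bases before to 50 bases after the start, matched 42 of the 46 members. On either strand, letters of the interferon-stimulated response element (GAAA, any 2 bases, GAAA) were found in the windows of 3 of 5 immunoproteasome genes (60.0%: Psmb8, Psmb10 and Psme2). They were found in 3 of 26 constitutive subunit genes (11.5%: Psma4, Psmb3 and Psmd7) and in 3.92% of all 33469 windows. Letters of the antioxidant response element, TGACNNNGC, were found in 0 of 5 immunoproteasome genes and in 6 of 26 constitutive genes (23.1%: Psma3, Psmb2, Psmb5, Psmb6, Psmd1 and Psmd3), against 12.1% of all windows. The CCAAT box letters stood in 14 of 26 constitutive windows (53.8%), 2 of 5 immunoproteasome windows (40.0%) and 37.5% of all windows, and GGGCGG, the core of an SP1 box, in 19 of 26 (73.1%), 3 of 5 (60.0%) and 33.1%. Motifs were counted separately whether or not they overlapped. A match is a description of the letters, not a measured binding site.

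Stretches from 140 bases before to 10 bases after the start are printed here for the immunoproteasome genes with a match and for Psmb9, which has none in its window. Capitals mark the response element letters, on either strand.
Psmb8 (chr20:4657022-4657171, minus strand): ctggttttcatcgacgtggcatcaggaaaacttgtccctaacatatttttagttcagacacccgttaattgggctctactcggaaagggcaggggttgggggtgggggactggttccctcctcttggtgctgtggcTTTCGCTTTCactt
Psmb10 (chr19:50743283-50743432, minus strand): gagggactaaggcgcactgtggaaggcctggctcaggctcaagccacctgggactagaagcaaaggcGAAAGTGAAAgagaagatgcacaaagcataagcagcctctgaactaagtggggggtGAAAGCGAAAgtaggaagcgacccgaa
Psme2 (chr15:33052742-33052891, minus strand): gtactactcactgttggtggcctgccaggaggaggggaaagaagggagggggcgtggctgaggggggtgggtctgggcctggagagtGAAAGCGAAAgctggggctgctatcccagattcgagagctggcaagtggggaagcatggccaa
Psmb9 (chr20:4668860-4669009, plus strand): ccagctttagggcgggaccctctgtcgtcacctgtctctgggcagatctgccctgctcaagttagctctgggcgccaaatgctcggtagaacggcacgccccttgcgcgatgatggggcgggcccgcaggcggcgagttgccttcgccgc
In Psmb8 the match began 4 bases before the start and read on the other strand, in Psme2 it began 53 bases before the start, and Psmb10 held 2 matches, 73 and 17 bases before the start. Psmb9 lies head to head with Tap1, which encodes a subunit of the peptide transporter of class I loading, and the windows of these 2 genes overlap by 44 bases. The Tap1 stretch is printed because its match, which began 121 bases before the Tap1 start, lies on the side of Psmb9.
Tap1 (chr20:4668534-4668683, minus strand): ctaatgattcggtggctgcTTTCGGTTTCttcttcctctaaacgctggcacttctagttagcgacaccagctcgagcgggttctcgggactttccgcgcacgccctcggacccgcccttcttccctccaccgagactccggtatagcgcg
For comparison, the constitutive partners Psmb5 and Psmb6 each held the letters TGACNNNGC, in capitals, beginning 60 and 24 bases before the start. Psmb7, the partner of Psmb10, held none in its window and is not printed.
Psmb5 (chr15:32047370-32047519, minus strand): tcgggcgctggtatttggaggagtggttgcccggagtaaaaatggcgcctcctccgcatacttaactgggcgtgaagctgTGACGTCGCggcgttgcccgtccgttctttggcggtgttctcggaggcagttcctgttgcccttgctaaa
Psmb6 (chr10:55737748-55737897, plus strand): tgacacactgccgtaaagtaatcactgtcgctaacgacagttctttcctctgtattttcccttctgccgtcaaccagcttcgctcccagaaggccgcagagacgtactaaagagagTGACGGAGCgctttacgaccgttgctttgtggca

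All values below are log2 signals relative to the array's 75th percentile, and differences are benzyl acetate minus vehicle. Since probes differ in brightness, the level of a gene is not set against that of another gene. The 75th percentile was 1003 to 1057 on the vehicle arrays and 883 to 990 on the treated arrays, with the lowest value on benzyl acetate replicate 3, and no spot was saturated. Of the 2 slides, 1 held vehicle replicate 1 alone and the other held the remaining 5 arrays. Vehicle replicate 1 and benzyl acetate replicate 3 also shared a position on their slides and shared low values in some printed columns of the array, which touch some members as described with their values. All 7 proximal tubule markers and all 3 podocyte markers were detected, as were the 3 markers of collecting duct and medulla (Aqp2, Aqp3 and Slc14a2).

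The contrast between the groups asks whether the proteasome genes of renal cortex differ after 4 weeks of dosing. None of the 46 members passed the threshold. At an adjusted p under 0.05 limma called 0 members in either direction (lowest adjusted p = 0.677), against 0.0% of all genes, and no alternative processing called a member. At an unadjusted p under 0.05 there were 2 members, Psme4 on the higher side and Psmb8 on the lower side, or 2 of 46 where 6.74% of all genes were below that p (3.82% higher and 2.92% lower). The groups did not overlap for 3 members on the higher side (Psme4, Psmd1 and Psma6) and 3 on the lower side (Psmb8, Psmc4 and Psmb1), or 6 of 46 where 12.8% of all genes did not overlap (7.51% higher and 5.31% lower). Both shares are near the background.

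Most proteasome genes were measured closely enough to bound a difference. The median difference over the 46 members was -0.007, with 22 higher and 24 lower, beside a median of 0.012 over all genes. For 36 of 46 members (78.3%) the 95% interval lay inside a 1.25-fold difference, and for 42 (91.3%) inside a 1.5-fold difference. The same shares over all genes tested were 38.6% and 73.9%, and over genes with a symbol 45.1% and 77.1%.

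**Figure D1:**
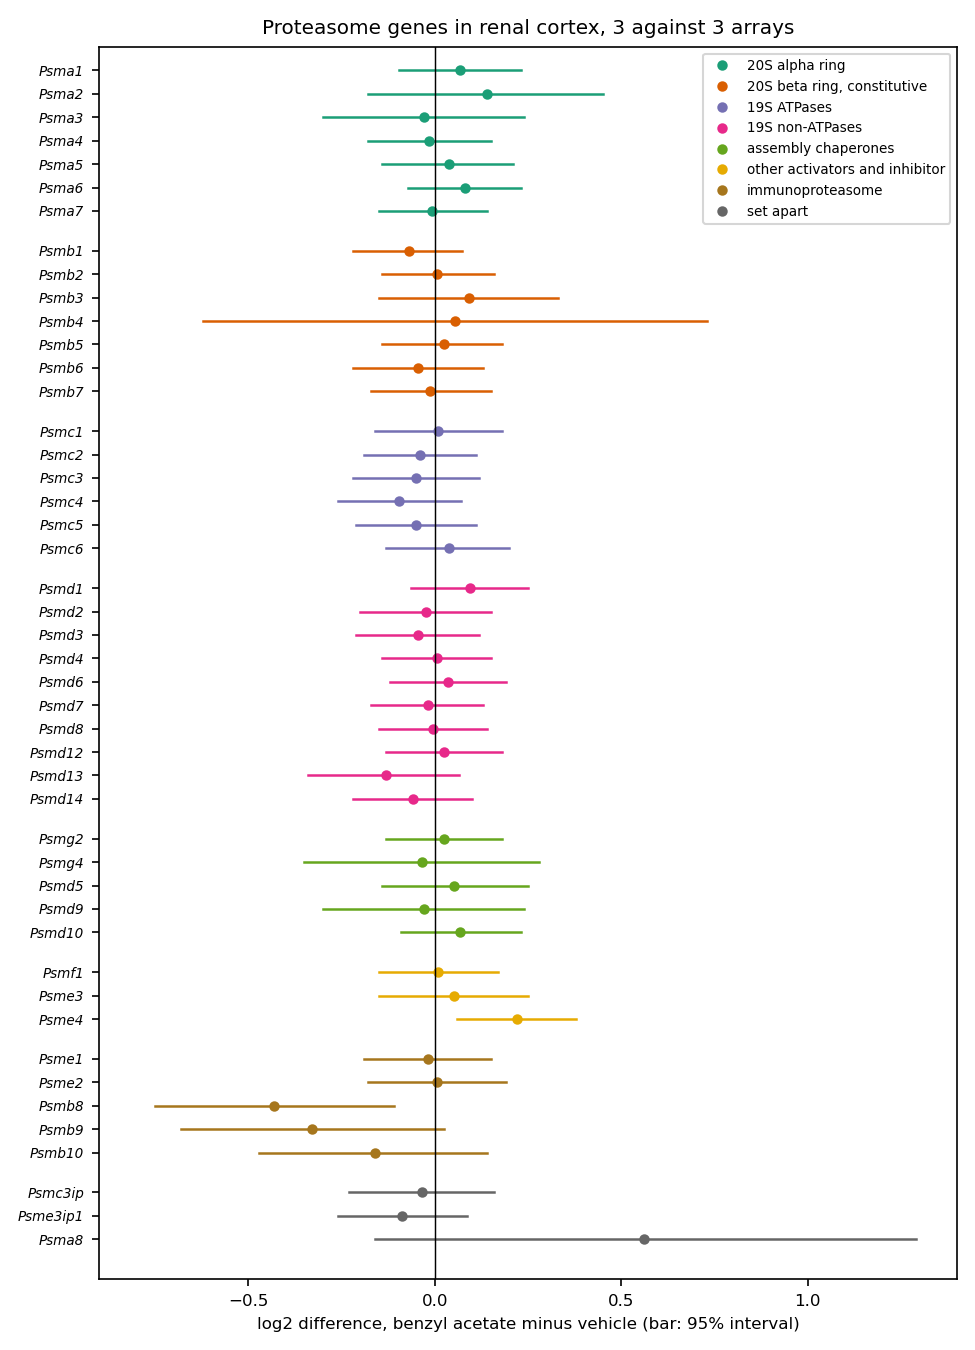
Log2 difference, benzyl acetate minus vehicle, of each of the 46 proteasome genes (point) with its 95% interval from limma (bar), grouped by role, from 3 arrays per group. The constitutive subunits lie between -0.13 and 0.14, the catalytic immunoproteasome subunits Psmb8, Psmb9 and Psmb10 lie at -0.43, -0.33 and -0.16, and the intervals of Psmb8 and Psme4 do not reach 0.

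The constitutive subunits of core and cap stayed close together. Over these 30 genes the differences ran from -0.13 (Psmd13) to 0.14 (Psma2), with a median of -0.007, 14 higher and 16 lower. Under median scaling 21 of the 30 were lower, so their signs depend on how the arrays are scaled. The typical 95% interval reached 0.16 to either side, a 1.12-fold difference, and 29 of 30 intervals (96.7%) lay inside a 1.5-fold difference. The exception was Psmb4. The mean over the 30 genes, each centred on its own mean, was between -0.026 and 0.028 on every array, so no animal stood apart in the bulk of the family.

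In the alpha ring, whose subunits form the gate of the core, 4 of 7 genes were higher and 3 lower, with a median of 0.037. Psma6 was at 5.29, 5.30 and 5.36 in vehicle and 5.37, 5.39 and 5.44 with benzyl acetate, a difference of 0.081 (-0.072 to 0.23). Its groups did not overlap, but the interval includes 0 and it did not pass in limma (adjusted p = 0.836). The other Psma6 probe overlapped, with 3.40, 3.42 and 3.50 against 3.46, 3.45 and 3.47, a difference of 0.02. Psma2 had the highest value among the constitutive subunits, 0.14 (-0.18 to 0.45), through vehicle replicate 3 at 3.02, since the other 5 arrays lay between 3.35 and 3.47.

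In the constitutive beta ring 4 of 7 genes were higher and 3 lower, with a median of 0.006. Psmb5, the chymotrypsin-like site, was at 4.63, 4.70 and 4.59 in vehicle and 4.64, 4.64 and 4.70 with benzyl acetate. The treated values lay within or at the edge of the vehicle range, and the difference was 0.024 (-0.14 to 0.18). Psmb6, the caspase-like site, was at 2.78, 2.94 and 2.89 in vehicle and at 2.86, 2.81 and 2.81 with benzyl acetate, a difference of -0.044 (-0.22 to 0.13). Psmb7, the trypsin-like site, was at 2.99, 3.03 and 3.04 in vehicle and at 3.05, 3.03 and 2.94 with benzyl acetate, a difference of -0.013 (-0.17 to 0.15). The groups overlapped for each of these catalytic genes, and the far end of each interval was at most a 1.16-fold difference. Among the non-catalytic beta subunits, Psmb1 was lower on each treated array (3.28, 3.28 and 3.26 against 3.17, 3.23 and 3.21), a difference of -0.07 (-0.22 to 0.074; limma adjusted p = 0.851).

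The 6 ATPases of the cap, which form the unfolding ring, had 2 genes higher and 4 lower, with a median of -0.044 and all 6 intervals inside a 1.25-fold difference. Psmc4 was at 2.62, 2.75 and 2.65 in vehicle and 2.59, 2.54 and 2.60 with benzyl acetate, without overlap. Its difference was -0.096 (-0.26 to 0.07; limma adjusted p = 0.827), and its other probes gave -0.08 and -0.06. The other 5 ATPase genes lay between -0.05 (Psmc5) and 0.037 (Psmc6).

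Of the 10 non-ATPase cap subunits measured, 4 were higher and 6 lower, with a median of -0.013. Psmd13, a structural subunit of the lid, was at 1.99, 1.90 and 1.75 in vehicle and 1.78, 1.71 and 1.74 with benzyl acetate. Vehicle replicate 3 lay within the treated range, and the difference was -0.13 (-0.34 to 0.066; limma adjusted p = 0.8). Psmd1, the large scaffold subunit of the base, was at 5.18, 5.26 and 5.30 in vehicle and 5.32, 5.36 and 5.34 with benzyl acetate, a difference of 0.095 (-0.064 to 0.25; limma adjusted p = 0.822). These values do not overlap, while the other Psmd1 probe overlapped, with 2.57, 2.68 and 2.55 against 2.63, 2.57 and 2.59. Psmd14, the deubiquitinase of the lid, differed by -0.057 (-0.22 to 0.1), and the ubiquitin receptor Psmd4 by 0.0064 (-0.14 to 0.15).

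The chaperones that assemble core and cap were close to 0 as well, with 3 of 5 higher, 2 lower and a median of 0.026. Psmd10 (gankyrin), a chaperone of the ATPase ring, differed by 0.069 (-0.09 to 0.23). Psmd5 differed by 0.052 (-0.14 to 0.25) and Psmg2, a chaperone of the alpha ring, by 0.026 (-0.13 to 0.18). Psmd9 and Psmg4 were at -0.029 (-0.3 to 0.24) and -0.033 (-0.35 to 0.28), with wider intervals.

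Psme4 encodes PA200, a nuclear activator that caps the core without ATP. It had the lowest unadjusted p of all members, 0.0154 in limma. The log2 signal was 2.08, 2.14 and 2.11 in vehicle and 2.27, 2.33 and 2.40 with benzyl acetate, so each treated array lay above each vehicle array. The difference was 0.22 (0.06 to 0.38), 1.17-fold, with an adjusted p of 0.677 in limma. The 2 other Psme4 probes gave smaller values. One was at 1.52, 1.53 and 1.49 in vehicle and 1.53, 1.61 and 1.85 with benzyl acetate, a difference of 0.15 (-0.1 to 0.39). The other was at -0.09, -0.16 and -0.24 in vehicle and -0.20, -0.12 and 0.14 with benzyl acetate, a difference of 0.1 (-0.16 to 0.37). On both of these probes benzyl acetate replicate 3 was the highest array and the rest lay close together. Over all alternatives Psme4 ran from 0.10 (its lowest-signal probe) to 0.25, always on the higher side.

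The other regulators lay closer to 0. Psme3, the nuclear PA28 gamma activator, differed by 0.052 (-0.15 to 0.25), and Psmf1, the PI31 regulator, by 0.0094 (-0.15 to 0.17). Psma8 had the widest interval of all members. It was at -5.30, -4.96 and -5.94 in vehicle and -4.48, -5.18 and -4.85 with benzyl acetate, a difference of 0.56 (-0.16 to 1.29; limma adjusted p = 0.775) with overlapping groups. With 1 array left out it ran from 0.29 (without vehicle replicate 3) to 0.79 (without vehicle replicate 2, where the unadjusted p was 0.0405 and the adjusted p 0.876 in limma), and normexp background correction gave 0.19. Its 3 other probes did not meet the detection condition in either group. The prefix-only genes Psmc3ip and Psme3ip1 differed by -0.035 and -0.089, and both intervals include 0.

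The inducible catalytic subunits were the members that lay furthest on the lower side. Psmb8, Psmb9 and Psmb10 had differences of -0.43, -0.33 and -0.16, a median of -0.33, while the PA28 genes Psme1 and Psme2 had a median of -0.006. Over the 5 immunoproteasome genes the median was -0.16, with 1 higher and 4 lower, against -0.007 for the constitutive subunits. Without benzyl acetate replicate 2 it was -0.035. None of the 5 passed in limma (lowest adjusted p = 0.696), and the members had been picked as a contrast with results of these data known, so no p over the set is given. In bulk cortex, fewer cells of a type and less RNA per cell cannot be told apart.

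Psmb8 (LMP7), which replaces Psmb5, was at 0.71, 0.81 and 1.06 in vehicle and 0.49, 0.24 and 0.56 with benzyl acetate. Every treated array lay below every vehicle array, with benzyl acetate replicate 2 the lowest and vehicle replicate 3 the highest. The means were 0.86 ± 0.18 (SD, n = 3) and 0.43 ± 0.17 (SD, n = 3). The difference was -0.43 (-0.75 to -0.11), 1.34-fold, with an unadjusted p of 0.0173 and an adjusted p of 0.696 in limma. Leaving out vehicle replicate 3 gave -0.33, leaving out benzyl acetate replicate 2 also gave -0.33, and it was -0.50 on the shared slide alone, which holds both groups and lacks vehicle replicate 1. The array has a single Psmb8 probe, and it lies in the printed columns described at the end.

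Psmb9 (LMP2), which replaces Psmb6, was at 1.12, 1.28 and 1.56 in vehicle and 1.12, 0.81 and 1.04 with benzyl acetate. The ordering of the arrays resembled that of Psmb8, but vehicle replicate 1 and benzyl acetate replicate 1 coincided, so the groups met. The difference was -0.33 (-0.68 to 0.024), 1.25-fold (limma adjusted p = 0.75). Leaving out vehicle replicate 3 gave -0.21 and leaving out benzyl acetate replicate 2 gave -0.24, against -0.43 on the shared slide alone. Vehicle replicate 3 and benzyl acetate replicate 2 therefore carry part of the difference of Psmb9.

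Psmb10 (MECL-1), which replaces Psmb7, was at 2.67, 2.83 and 2.80 in vehicle and 2.75, 2.35 and 2.72 with benzyl acetate. Only benzyl acetate replicate 2 lay below the vehicle range. The difference of -0.16 (-0.47 to 0.14; limma adjusted p = 0.836) shrank to -0.035 without that array.

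Psme1, the PA28 alpha subunit, was at 5.22, 5.34 and 5.31 in vehicle and 5.30, 5.20 and 5.31 with benzyl acetate, a difference of -0.019 (-0.19 to 0.15). Psme2, the PA28 beta subunit, was at 4.90, 4.90 and 4.87 in vehicle and 4.86, 4.83 and 5.01 with benzyl acetate, a difference of 0.0059 (-0.18 to 0.19). Both groups overlapped, and the far ends of both intervals were a 1.14-fold difference. Of the 5 immunoproteasome genes, Psmb8, Psmb10 and Psme2 hold the response element letters in their windows, at differences of -0.43, -0.16 and 0.0059. Psmb9 and Psme1, at -0.33 and -0.019, hold none in theirs. The part of these letters in the values was not tested.

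Each inducible subunit was also set against the constitutive subunit it replaces, within each array. Here only the change between groups has a meaning, since the 2 probes differ in brightness. Psmb8 minus Psmb5 was -3.92, -3.89 and -3.53 in vehicle and -4.15, -4.40 and -4.14 with benzyl acetate, a change of -0.45 with no overlap. Psmb9 minus Psmb6 was -1.66, -1.66 and -1.32 in vehicle and -1.74, -1.99 and -1.77 with benzyl acetate, a change of -0.28, again with no overlap. Psmb9 itself was at 1.12 on both vehicle replicate 1 and benzyl acetate replicate 1. Psmb6 was at 2.78 and 2.86 on these 2 arrays, so the gap between them came from Psmb6. Psmb10 minus Psmb7 was -0.32, -0.20 and -0.24 in vehicle and -0.30, -0.68 and -0.22 with benzyl acetate, a change of -0.15 with overlap. The exact two-sided permutation p was 0.1, 0.1 and 0.5 (0.15, 0.15 and 0.5 after Benjamini-Hochberg adjustment over the 3 pairs), and 0.1 is the smallest p that 3 against 3 arrays allow, so no pair could pass the threshold.

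**Figure D2:**
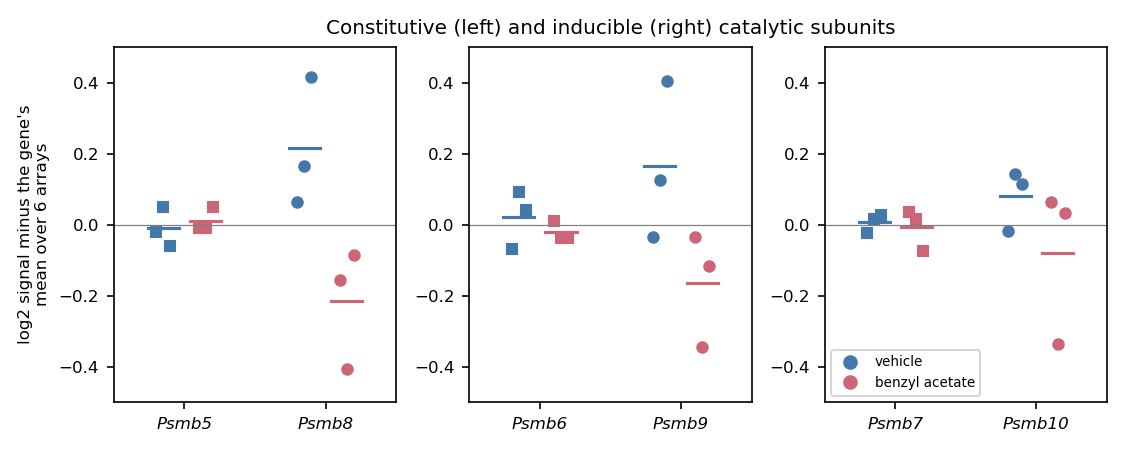
Log2 signal of each constitutive catalytic subunit (squares) and the inducible subunit that replaces it (circles), minus the gene's mean over the 6 arrays, for vehicle (blue) and benzyl acetate (red); lines mark group means, n = 3. Psmb5, Psmb6 and Psmb7 stay within 0.1 of their means, while Psmb8 separates the groups and Psmb10 is low on 1 treated array.

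Genes of the inflammatory route were followed beside the immunoproteasome. Irf1, the transcription factor that induces Psmb8 and Psmb9, was at 2.08, 1.77 and 2.31 in vehicle and 1.93, 1.64 and 1.97 with benzyl acetate. Its groups overlapped, with a difference of -0.21 (-0.61 to 0.2; limma adjusted p = 0.84). Of the 11 tested genes of class I antigen processing and its regulators, 0 passed in limma, with 4 higher, 7 lower and a median of -0.034. Ifng did not meet the detection condition in either group. Of 17 tested interferon-stimulated genes 0 passed in limma, with 3 higher, 14 lower and a median of -0.25. Oasl entered through the vehicle group alone, and the 16 detected on all 6 arrays were 3 higher and 13 lower, with the highest mean on vehicle replicate 1 (0.31) and the lowest on benzyl acetate replicate 2 (-0.462). The members of the list best known as interferon-gamma targets, named after their values were seen, were all on the lower side. Cxcl9 was at -4.40, -4.26 and -2.99 in vehicle and -4.65, -4.70 and -4.85 with benzyl acetate, a difference of -0.85 (-1.77 to 0.068). Cxcl10 differed by -0.29 (-0.73 to 0.14), Gbp2 by -0.37 (-0.77 to 0.039) and Gbp5 by -0.45 (-1.03 to 0.13). Groups did not overlap for Cxcl9 and Cxcl10, or 2 of the 17, where 12.8% of all genes did not overlap. Cxcl9, Gbp2 and Gbp5 were highest on vehicle replicate 3, as Psmb8 and Psmb9 were. Gbp2 was there at 1.23, against 1.19 on vehicle replicate 1, and Cxcl10 was highest on vehicle replicate 2 (-0.47).

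Psmb8 and Psmb9 sit with Tap1 and Tap2 in the MHC class II region. In the RefSeq order of GRCr8 the genes follow as RT1-DOb, Tap2, Psmb8, Tap1, Psmb9 and RT1-DMb. Tap1 was at -1.55, -1.70 and -1.43 in vehicle and -1.75, -2.44 and -1.51 with benzyl acetate, a difference of -0.34 (-0.94 to 0.26) that rests mainly on benzyl acetate replicate 2. Tap2 was at 0.04, 1.64 and 0.93 in vehicle and 1.41, 0.41 and 1.22 with benzyl acetate, a difference of 0.14 (-0.99 to 1.26). Of the 8 measured neighbours around Psmb8 and Psmb9, Tap2 was the only one on the higher side. The others ran from -0.56 (RT1-Bb, -1.21 to 0.08) to -0.049 (RT1-DMb, -0.82 to 0.72), the groups overlapped for all 8, and none passed in limma. B2m, the light chain of class I, differed by -0.033 (-0.33 to 0.27).

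Psmb8, Psmb9 and Psmb10 are abundant in leukocytes, and leukocyte markers varied over the arrays beside them. All 12 tested of 14 listed T and NK cell markers were lower, with a median of -0.52, and 0 passed in limma. Cd2 entered through the vehicle group alone (well above background on 3 vehicle and 0 treated arrays), so its direction was fixed by the filter. The other 11, detected on all 6 arrays, were lower with a median of -0.50. The mean of these 11, each centred on its own mean, was 0.015, -0.064 and 0.868 in vehicle and -0.234, -0.437 and -0.148 with benzyl acetate. Cd3e did not meet the detection condition in either group. Of 5 listed B cell markers 3 were tested. Cd22 and Cd79b entered through the vehicle group alone, so no direction is read from this list. All 9 tested of 10 listed macrophage markers were lower, with sums of 94.8 to 110.0 in vehicle and 77.4 to 119 with benzyl acetate, Cd163 being below the detection condition.

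The arrays at the extremes of Psmb8 were also the extremes of the T and NK cell and macrophage lists. Over genes detected on all 6 arrays, vehicle replicate 3 had the highest mean of the inducible catalytic subunits (0.31), of 11 T and NK cell markers (0.868) and of 9 macrophage markers (0.25). Benzyl acetate replicate 2 had the lowest means, -0.36, -0.437 and -0.348. The constitutive subunits were at -0.003 and -0.005 on these 2 arrays. Between the extremes the order differed. On benzyl acetate replicate 3 the macrophage mean was 0.163, above vehicle replicates 1 and 2 (-0.056 and 0.002). The inducible catalytic mean was -0.055 there, below the same vehicle arrays (0.003 and 0.144). Vehicle replicate 3 also had the lowest mean of the 3 thick ascending limb markers (-0.287). The part of leukocyte number in the values of Psmb8, Psmb9 and Psmb10 was not tested.

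**Figure D3:**
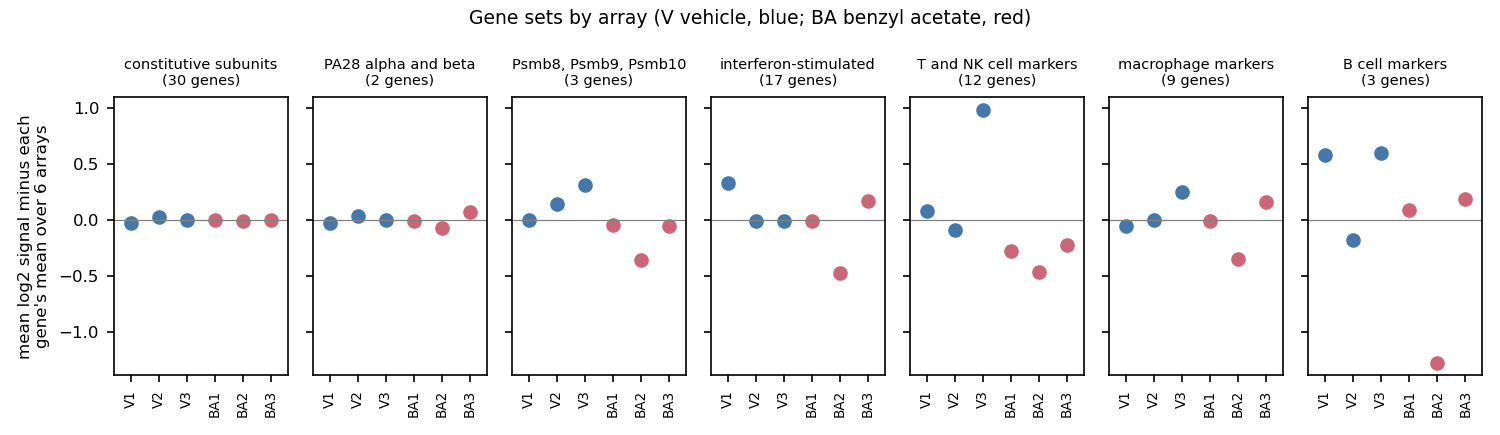
Mean log2 signal of each gene set on each of the 6 arrays (V vehicle, blue; BA benzyl acetate, red), after each gene was centred on its mean over the arrays. The 30 constitutive subunits stay between -0.026 and 0.028, while Psmb8, Psmb9 and Psmb10, the T and NK cell markers and the macrophage markers are highest on V3 and lowest on BA2. Cd2 among the T and NK cell markers, Cd22 and Cd79b among the B cell markers and Oasl among the interferon-stimulated genes were detected on all 3 arrays of the vehicle group only.

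The genes that work with the proteasome outside these symbols gave no call either. Of 12 tested associated factors 0 passed in limma, with 6 higher, 6 lower and a median of 0.005. The brightest were Pomp, which matures the core (0.0094, -0.16 to 0.18), the cap subunit Sem1 (-0.038, -0.24 to 0.16), the cap-bound thioredoxin Txnl1 (0.091, -0.085 to 0.27) and the shuttle receptor Ubqln1 (-0.016, -0.18 to 0.15). Zfand2a, a stress-inducible proteasome-binding protein named after its values were seen, was at 1.79, 1.62 and 1.68 in vehicle and 1.46, 1.30 and 1.36 with benzyl acetate. Its groups did not overlap, and the difference of -0.33 (-0.52 to -0.13) did not pass in limma (adjusted p = 0.659). Groups did not overlap for 3 of the 12 factors, 1 higher (Rad23b) and 2 lower (Zfand2a and Akirin2), where 12.8% of all genes did not overlap.

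Of 8 tested genes of the NRF1 route 0 passed in limma, with 1 higher, 7 lower and a median of -0.046. Nfe2l1 itself was at 0.75, 0.83 and 0.62 in vehicle and 0.75, 0.77 and 0.80 with benzyl acetate, a difference of 0.034 (-0.16 to 0.22). Nfe2l2, which encodes the related factor NRF2, differed by -0.11 (-0.33 to 0.12) and the extraction ATPase Vcp by -0.049 (-0.22 to 0.12). The ubiquitin gene Ubb was at -0.006 (-0.19 to 0.18), and none of the 6 tested ubiquitin and E1 genes passed. The 6 constitutive genes with TGACNNNGC in the promoter window lay between -0.045 (Psmd3) and 0.095 (Psmd1).

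Probes of the same gene show how far a single array value can be trusted. The array holds 81 member probes, of which 78 were tested; 24 members had several tested probes, and for 11 of these the probes differed in sign. For 0 of them did intervals exclude 0 on both sides. Psmb4 was at 4.42, 5.17 and 5.19 in vehicle and 5.18, 5.20 and 4.56 with benzyl acetate on its brighter probe, a difference of 0.055 (-0.62 to 0.73). On the other probe it was at 4.86, 5.01 and 4.97 against 4.89, 4.82 and 4.89, a difference of -0.08 (-0.25 to 0.1). The low values of vehicle replicate 1 and benzyl acetate replicate 3 stood only on the brighter probe.

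The same shape recurred in other members. A Psmg4 probe not used for the gene was at 1.02, 1.89 and 1.78 in vehicle and 1.86, 1.87 and 1.13 with benzyl acetate, and an unused Psmd12 probe at 2.75, 3.18 and 3.17 against 3.18, 3.18 and 2.86. Over the whole array 518 of 42355 tested probes were lower on these 2 arrays than on each of the other 4 by over 0.3 log2, against 69 to 259 for other pairs of arrays. Of those, 411 lay among the 2808 probes of 11 of the 164 printed columns, a share of 14.6% there and 0.271% elsewhere. The arrays share a slide position, and the cause was not tested.

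In these columns lie 8 member probes, among them those used for Psma3, Psmb4, Psmb8, Psmd1 and Psme4. The probes of Psmb8 and Psme4 did not have the shape: on neither were these 2 arrays both the lowest. With the 11 columns left out, an alternative chosen after seeing the data, Psmb8 has no probe left, Psme4 is read from its next probe at 0.15, and 0 members have an unadjusted p under 0.05 in limma. Psmb9 and Psmb10 are then at -0.33 and -0.16, and the immunoproteasome median, over the 4 genes left, is -0.09 against -0.16.

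**Figure D4:**
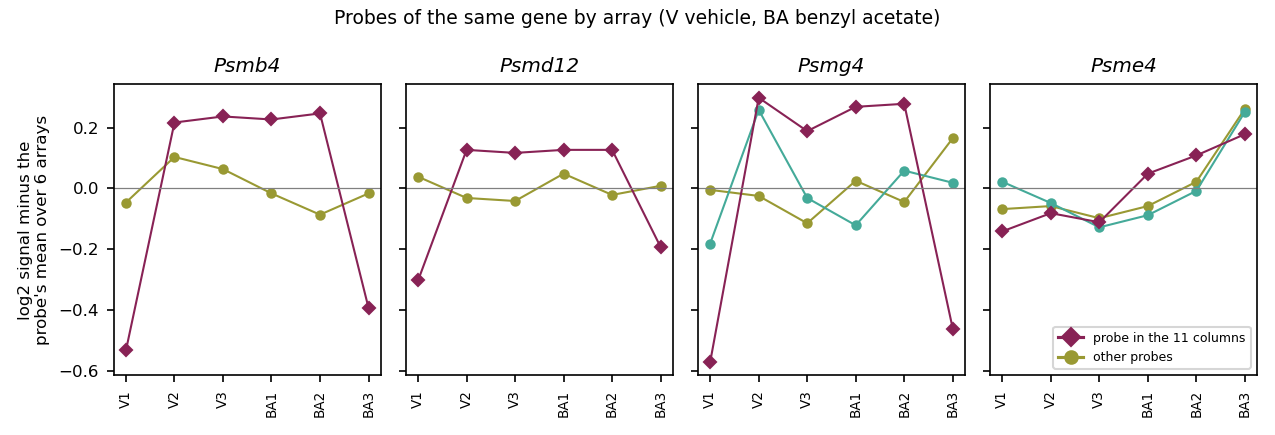
Log2 signal of each probe of Psmb4, Psmd12, Psmg4 and Psme4 minus the probe's mean over the 6 arrays (V vehicle, BA benzyl acetate); diamonds are probes in the 11 printed columns and circles in either colour the other probes. V1 and BA3 are low together on the diamond probes of Psmb4, Psmd12 and Psmg4 and on no other probe shown, and all 3 Psme4 probes are highest on BA3.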

How the data were processed

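The authors deposited linear spot intensity from each scan. The submitters' processing notes name Agilent Feature Extraction 10.7, and per the file headers it subtracted background but applied no scaling across arrays. Values of other kinds, the 0 or 1 flags for detection, outliers and saturation, were set by the same software, per the file headers. Each array detected between 69.01% and 71.95% of its 61537 non-control probes, and precision is limited by having 3 arrays per group. The members and gene lists were chosen with earlier results of these data known.

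Signals were log2-transformed and centred on each array's 75th percentile, which hides any shift common to most transcripts; spots flagged as feature outliers were left out. Probes were named through their accession in RefSeq (GRCr8): 28206 matched, giving 15645 symbols. Psmd11, Psmg1, Psmg3 and Psmb11 were not matched. A probe was kept when well above background on all 3 arrays of a group (42355 probes), and the brightest probe stood for each gene (31179 genes, 12276 with a symbol). Near-identical gene copies may cross-hybridise. Both groups were compared with limma 3.58.1 under R 4.3.3 (lmFit, eBayes, Benjamini-Hochberg over all genes, threshold 0.05), which was tested on simulated data. Replicates are separate animals, per the labels. All members could be named; array values were printed for the catalytic and immunoproteasome genes, the 3 members of lowest p in each direction and, beyond that rule, members whose groups did not overlap or whose probes disagreed, and Nfe2l1, Irf1 and the neighbours Tap1 and Tap2. From other lists the brightest members were named, with Nfe2l1, Irf1, Ifng, Zfand2a, Cxcl9, Cxcl10, Gbp2, Gbp5 and genes detected in 1 group only beyond them; some genes of these lists are not reported here. Alternatives were other blocks, background corrections, normalizations, filters, probe rules, priors and weights, the deposited value table (intensity with the 75th percentile at 1; column medians 0.1102, 0.111, 0.111, 0.1148, 0.1118 and 0.1125) and leaving out each array.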

Additional observations from a re-analysis of the deposited data

How the results depend on the processing

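Over 21 settings limma called 0 members in any of 965 combinations of member and setting, and 20 of 46 members kept their sign throughout, Psmb8, Psmb9, Psmb10 and Psme4 among them. Psmb8 ran from -0.50 to -0.33 (adjusted p 0.265 to 0.876), Psmb9 from -0.43 to -0.21, Psmb10 from -0.23 to -0.035 and Psme4 from 0.10 to 0.25. Over all genes limma called 0 except with normexp background correction, where it called 2, and without benzyl acetate replicate 1, where it called 2 (range 0 to 2 when arrays were left out in turn). At an unadjusted p under 0.05 it gave 1190 genes higher and 910 lower, but 828 and 1276 with median scaling, 5497 and 1081 without a filter on dim probes and 1555 and 737 with normexp. The constitutive median was -0.036 with median scaling and -0.016 to 0.008 with arrays left out; the immunoproteasome median was -0.23 to -0.035 and its distance from the constitutive median -0.23 to -0.030 with arrays left out, the upper ends without benzyl acetate replicate 2. With the 11 printed columns left out, chosen after seeing the data, these were -0.09 and -0.083, against -0.16 and -0.15, with Psmb8 dropped for want of a probe. With the replicate number as a block, limma called 0 genes (lowest adjusted p = 0.672) and 0 members (lowest adjusted p = 0.716). After group means were removed, same-numbered animals correlated at -0.108, 0.008 and 0.001, and differently numbered animals at -0.108 to 0.121. With 3 arrays per group these values cannot show whether the numbers pair animals. Slide and vehicle replicate 1 cannot be told apart.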
